A study of Ovis aries with 12 samples.

Results

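Gene expression was compared between Tan sheep fed a basal diet with 0.5% succinate and Tan sheep fed the basal diet alone, in 3 RNA sequencing libraries per diet. Succinate is an intermediate of the tricarboxylic acid cycle. All sheep (Ovis aries) were 5 months old and kept in individual pens, and the labels give neither sex nor genotype beyond the breed. The 6 libraries are part of 12 from a trial with 4 diets and 36 sheep, 9 per diet. Nothing in the labels ties a library to an animal, so p-values measure only the spread between these libraries, which may be technical. Of 21257 genes in the deposited table, the 11649 with at least 1 FPKM in at least 3 of the 6 libraries were tested. FPKM, the authors' unit, counts fragments relative to the length of the gene and the size of the library. All log2 differences below are on the scale log2(FPKM + 1), succinate minus basal diet, which understates the difference of genes near 1 FPKM. Adjusted p-values are from limma with Benjamini-Hochberg adjustment over all genes tested.

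The title of the study concerns proliferation of rumen epithelial cells, but the labels name no tissue. The rumen is a forestomach whose wall carries a stratified epithelium on the inside and smooth muscle beneath it. In ruminants that epithelium takes up the acids made by the microbes, and the muscle layers mix and move the contents. Of 8 markers of stratified epithelium, 7 had 0 reads in all 6 libraries, among them the basal keratins KRT5 and KRT14 and the regulator TP63. The eighth, DSG1, a desmosomal cadherin, had 3 reads in total. Smooth muscle genes were abundant in every library, with DES (desmin, the intermediate filament of muscle) at 16100, 12900 and 9770 FPKM at 0.5% succinate and 8320, 7360 and 8120 FPKM in the basal diet. In a wider list of stratified epithelium genes, 26 of 35 had a read and 7 passed the filter, among them KLF4 at 3.48 to 12.2 FPKM. KRT8, a marker of simple epithelium and mesothelium, was at 0.0991 to 5.74 FPKM. By the 8 markers alone stratified epithelium was not detectable in the libraries, and the values below are those of a tissue rich in smooth muscle.

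The libraries held 16706328 to 18229291 reads assigned to genes at 0.5% succinate and 16098638 to 16426453 in the basal diet. Across tested genes, pairs of libraries had a Pearson's r of 0.9433 to 0.9791. Libraries with the same replicate number deviated together, at 0.228, 0.236 and 0.175 for replicates 1, 2 and 3. Libraries with different numbers had correlations of -0.264 to 0.054. Replicate 1 of each diet was low in neuron, endothelial and adipocyte genes, and replicate 2 of the 0.5% diet had a trend with gene length, so values without them are given where they matter.

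By limma, 0 of 11649 genes passed the threshold of 0.05, and the smallest adjusted p was 0.208. At an unadjusted p under 0.05 there were 557 genes, 106 higher (0.91% of those tested) and 451 lower (3.87%). A fit that blocked on replicate number also called 0 genes, with 882 at an unadjusted p under 0.05. Limma-voom on reads recovered from the FPKM values called 0 genes, with 420. The libraries of the diets did not overlap in 190 genes that were higher (1.63%) and 1216 that were lower (10.4%) at 0.5% succinate. This imbalance followed the scaling. As deposited, all genes together had a median log2 difference of -0.11, with 29.2% of genes above 0. After TMM scaling (trimmed mean of M-values) it was 0.00, with 49.5% above 0, and 567 genes (4.87%) were higher and 459 (3.94%) lower without overlap. After removal of each library's trend with gene length 47.4% were above 0, and 5.4% of genes were higher and 5.05% lower without overlap. Differences are read against that median shift.

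Genes of the contractile proteins of smooth muscle were abundant, and most had higher values at 0.5% succinate. Contraction runs through myosin sliding on actin, which is switched on when calcium and calmodulin activate myosin light chain kinase. Of 25 contractile and cytoskeletal genes listed, all passed the filter and 19 were higher, with a median log2 difference of 0.28 against -0.11 for all genes tested. After TMM scaling 23 of 25 were higher, with a median of 0.41. The diets did not overlap in 8 of the 25, all higher, beside the 1.63% of all genes given above, and 0 of 25 passed the test.

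MYL9, the regulatory light chain of smooth muscle myosin, stood at 10200, 11100 and 7990 FPKM at 0.5% succinate and 5630, 7860 and 5630 FPKM in the basal diet, a log2 difference of 0.62 (SE 0.29, adjusted p 0.853). ACTG2, the actin of enteric smooth muscle, stood at 6930, 7000 and 7460 FPKM at 0.5% succinate and 5140, 5950 and 4130 FPKM in the basal diet, a difference of 0.51 (SE 0.26). In both genes every succinate library lay above every basal one. The same held for the actin-binding proteins TAGLN (transgelin), at 9360, 8420 and 7550 against 5470, 6620 and 5090 FPKM, and CNN1 (calponin), at 8900, 6440 and 5330 against 5090, 4010 and 4060 FPKM. TPM2, a tropomyosin that lies along the actin filament, was at 3290, 3270 and 2870 FPKM at 0.5% succinate and 2170, 2400 and 2020 FPKM in the basal diet. DES showed the largest difference of the 8, at 0.67 (SE 0.30), with its values given above. CSRP1, a LIM protein of actin filaments, was at 206, 246 and 215 against 130, 184 and 166 FPKM, and PDLIM7 separated the diets by less than the printed digits show, at 455, 350 and 356 against 280, 350 and 318 FPKM.

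Other parts of the contractile list overlapped between diets. MYH11, the smooth muscle myosin heavy chain, was at 3410, 2370 and 3340 FPKM at 0.5% succinate and 1920, 2530 and 2940 FPKM in the basal diet. MYLK, the light chain kinase, differed by 0.04 (SE 0.29), and the transcription factor SRF and its partner MYOCD, which drive the smooth muscle programme, by -0.02 (SE 0.15) and -0.16 (SE 0.17). ACTA2, the actin of vascular smooth muscle, had the largest difference of the list, 1.36 (SE 1.26), through a single library. Its values were 600, 221 and 294 FPKM at 0.5% succinate and 18.2, 363 and 334 FPKM in the basal diet, so that only basal replicate 1 was low. The median of the contractile list was 0.15 without basal replicate 1 and 0.06 without replicate 1 of both diets, against -0.17 for all genes in that fit. Within same-numbered libraries, a pairing taken from these data, the mean difference of the list was 0.66, 0.06 and 0.15. Markers of other cells differed beside these genes: 4 adipocyte markers summed to 26.1, 163 and 76.2 FPKM at 0.5% succinate and 79.9, 224 and 621 FPKM in the basal diet, and 4 macrophage markers to 25.5, 60.0 and 60.3 against 70.9, 86.2 and 115 FPKM. Their part in the contractile values was not tested.

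Small heat shock proteins, ATP-independent chaperones of which several are bound to muscle filaments, were higher in 5 of 7 tested genes, with a median log2 difference of 0.63. This family was singled out after its values were seen. HSPB1 stood at 2390, 2700 and 2380 FPKM at 0.5% succinate and 1650, 1630 and 1540 FPKM in the basal diet, a difference of 0.63 (SE 0.21, adjusted p 0.853). HSPB6, whose phosphorylated form is known for relaxing smooth muscle, stood at 513, 338 and 393 FPKM at 0.5% succinate and 245, 249 and 267 FPKM in the basal diet, a difference of 0.69 (SE 0.21). HSPB7 and HSPB3 also separated the diets, with differences of 0.75 (SE 0.32) and 0.76 (SE 0.34), in both of which succinate replicate 1 was highest, at 64.3 and 15.4 FPKM. CRYAB and HSPB8 overlapped, and CRYAA and HSPB9 were below the filter. The wider list of heat shock proteins and chaperonins had a median of -0.13, with 19 of 74 higher; 4 were higher without overlap, HSPB1, HSPB3, HSPB6 and HSPB7, and 11 were lower, beside 1.63% and 10.4% of all genes. After TMM scaling 7 of the wider list were higher and 4 lower without overlap, beside 4.87% and 3.94%. After TMM scaling the medians were 0.76 for the small heat shock genes and 0.00 for the wider list. The family's median was 0.32 without succinate replicate 1 and 0.34 without replicate 1 of both diets.

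**Figure D1:**
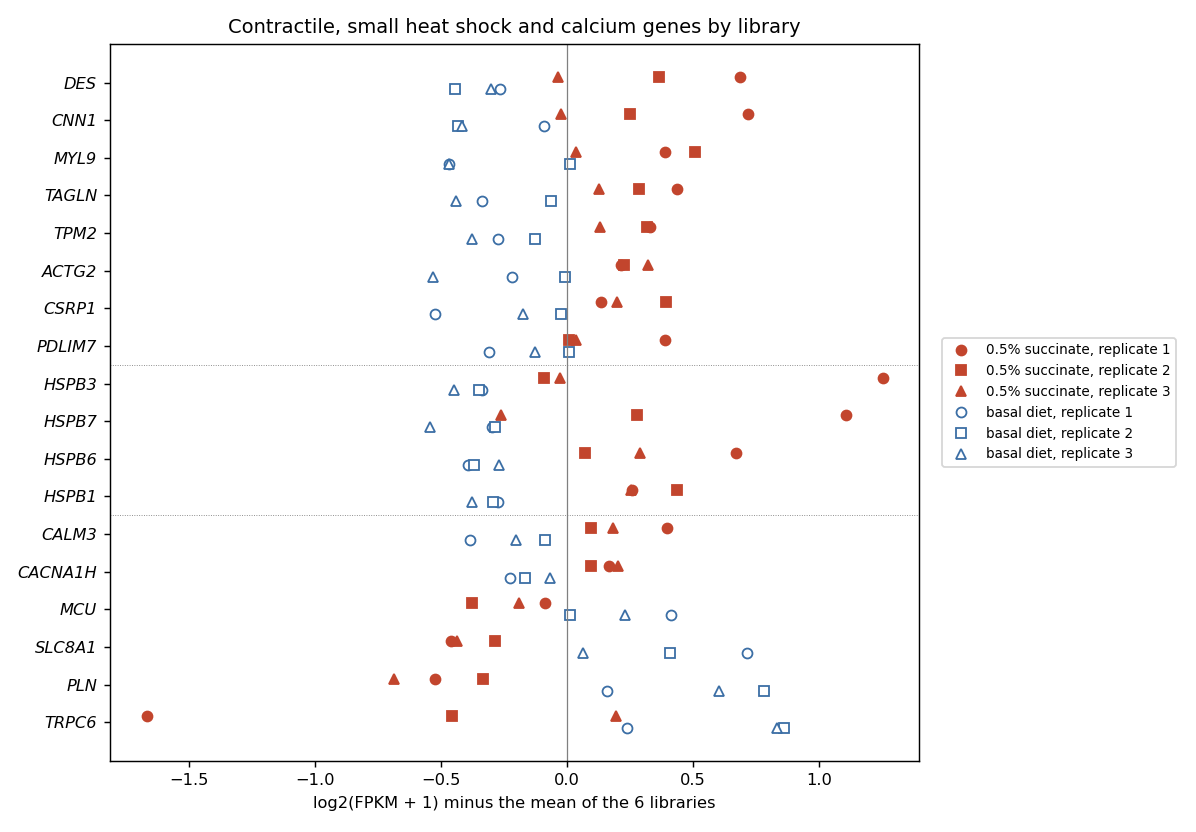
Values of contractile genes (top), small heat shock genes (middle) and calcium handling genes (bottom) in each library, as log2(FPKM + 1) minus the mean of the 6 libraries; filled red symbols are 0.5% succinate, open blue symbols the basal diet, and the symbol shape gives the replicate number. The genes shown are those of each group whose diets did not overlap, and the 4 calcium genes at the bottom (MCU, SLC8A1, PLN and TRPC6) lie lower at 0.5% succinate.

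Calcium handling genes split between directions. Smooth muscle takes calcium from the outside through membrane channels and from its sarcoplasmic reticulum, and relaxes when pumps and exchangers remove it. Of 42 genes listed, 32 were tested; 9 were higher and 23 lower, with a median log2 difference of -0.10, close to that of all genes. Diets did not overlap in 2 higher and 4 lower genes, beside 1.63% and 10.4% of all genes, and in 2 higher and 3 lower genes after TMM scaling. The share of lower genes was thus near that of all genes.

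PLN, phospholamban, which restrains the calcium pump of the sarcoplasmic reticulum, stood at 178, 203 and 159 FPKM at 0.5% succinate and 286, 441 and 390 FPKM in the basal diet. Its log2 difference was -1.03 (SE 0.22, adjusted p 0.853), and each succinate library was below each basal one. SLC8A1, a sodium-calcium exchanger of the plasma membrane, stood at 10.6, 12.1 and 10.8 FPKM at 0.5% succinate and 25.2, 20.2 and 15.7 FPKM in the basal diet, a difference of -0.79 (SE 0.19). After removal of the length trend PLN still separated the diets and SLC8A1 did not. TRPC6, a receptor-operated cation channel, was at 2.55, 7.22 and 11.9 against 12.3, 19.5 and 19.1 FPKM, and MCU, the pore of the mitochondrial calcium uniporter, at 18.4, 14.9 and 17.1 against 26.5, 19.8 and 23.2 FPKM. Higher without overlap were CALM3, a calmodulin gene, at 105, 84.9 and 90.3 against 60.6, 74.7 and 69.0 FPKM, and CACNA1H, a T-type calcium channel, at 24.2, 23.0 and 24.8 against 18.2, 19.0 and 20.4 FPKM. The pump that phospholamban binds, ATP2A2, differed by -0.07 (SE 0.21), and the calcium release channel RYR2 by 0.03 (SE 0.17).

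Of 27 tested receptors and cGMP genes that control contraction, 21 were lower and 6 higher, where 29.2% of all genes were higher. Their median was -0.21. After TMM scaling 18 were lower and 9 higher, with a median of -0.10, where 49.5% of all genes were higher. None of the 27 separated the diets as deposited. After TMM scaling 1 was higher without overlap, beside 4.87% of all genes. HTR2A, a serotonin receptor, was at 0.806, 4.70 and 11.3 FPKM at 0.5% succinate and 11.2, 18.1 and 15.7 FPKM in the basal diet, a difference of -1.64 (SE 0.68). PTGER4, a prostaglandin E2 receptor, differed by -1.04 (SE 0.42), with 1.86, 3.38 and 3.90 against 3.17, 11.3 and 9.51 FPKM. The median of the list was -0.07 without succinate replicate 2 and -0.36 without succinate replicate 3. Potassium channel genes had a median of 0.02 over 19 tested of 94 listed, and the pacemaker cell genes KIT and ANO1 differed by -0.13 (SE 0.27) and -0.22 (SE 0.21).

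Some of the higher genes named by smallest p and no overlap encode matrix or secreted proteins. LGALS1, galectin-1, a sugar-binding protein of muscle and stroma, stood at 657, 379 and 281 FPKM at 0.5% succinate and 155, 188 and 150 FPKM in the basal diet, a difference of 1.33 (SE 0.30, adjusted p 0.853). THBS4, thrombospondin-4, a matricellular protein of muscle and tendon, stood at 445, 238 and 496 FPKM at 0.5% succinate and 180, 99.8 and 197 FPKM in the basal diet, a difference of 1.29 (SE 0.35). In both genes every succinate library lay above every basal one, a condition of the rule by which they were named. NBL1, a secreted BMP antagonist, was at 61.2, 57.2 and 54.2 FPKM at 0.5% succinate and 36.4, 35.2 and 40.5 FPKM in the basal diet, a difference of 0.61 (SE 0.14). FMOD and SPARC, which bind collagen, were also higher without overlap, at 140, 143 and 120 against 109, 109 and 87.1 FPKM for FMOD and 1060, 765 and 1190 against 744, 746 and 752 FPKM for SPARC. KERA, keratocan, a small proteoglycan, was the lower member without overlap, at 0.383, 4.27 and 7.68 FPKM at 0.5% succinate and 9.00, 14.4 and 32.7 FPKM in the basal diet. The small proteoglycan and matricellular list as a whole was higher in 11 of 39 genes, with a median of -0.24, which was -0.38 without basal replicate 1 and -0.14 without basal replicate 3. Without overlap 3 of the 39 were higher and 1 lower, beside 1.63% and 10.4% of all genes. After TMM scaling 4 were higher and 1 lower, beside 4.87% and 3.94%.

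Collagen chains differed in both directions. The list was higher in 8 of 23 tested genes, with a median of -0.10, and the sign of that median depended on the libraries. It was 0.07 without succinate replicate 2, -0.31 without basal replicate 1 and -0.51 without replicate 1 of both diets. COL1A1, the main fibrillar chain, was at 77.5, 39.7 and 120 FPKM at 0.5% succinate and 30.2, 158 and 90.0 FPKM in the basal diet, and COL3A1 at 554, 238 and 678 against 292, 448 and 455 FPKM. The diets overlapped for both, and succinate replicate 2 was the lowest of its diet. Of the basement membrane collagens, COL18A1 separated the diets, at 57.2, 33.5 and 33.8 against 14.6, 32.5 and 31.4 FPKM, and COL4A1 did not, at 312, 129 and 185 against 99.8, 133 and 148 FPKM. Succinate replicate 1 was highest for both. Integrins, the matrix receptors, had a median of 0.01, with 9 of 18 higher, and matrix proteases and their inhibitors a median of -0.03, with 14 of 30 higher.

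Genes of macrophages, the resident phagocytes of the gut wall, were lower at 0.5% succinate. Of 31 genes listed, 28 were in the table and 23 tested; 2 were higher and 21 lower, with a median log2 difference of -0.53, or -0.42 after TMM scaling. Diets did not overlap in 6 genes, all lower, beside 10.4% of all genes, and in 4 genes after TMM scaling, beside 3.94%; 0 of 23 passed the test. C1QB, a chain of the complement protein C1q that tissue macrophages make, stood at 11.7, 28 and 23.1 FPKM at 0.5% succinate and 37.3, 40.1 and 59.9 FPKM in the basal diet, a difference of -1.14 (SE 0.32, adjusted p 0.853). The partner chains C1QA and C1QC differed by -0.85 (SE 0.41) and -0.99 (SE 0.36). VSIG4, a complement receptor of resident macrophages, was at 0.243, 0.629 and 0.752 against 1.5, 1.67 and 1.59 FPKM, and F13A1, a factor XIII chain found in tissue macrophages, at 1.63, 5.26 and 8.17 against 10, 13.5 and 17.7 FPKM. VSIG4, which is among the 6 genes without overlap, passed the filter of 1 FPKM through the basal libraries alone. Its place in that count is therefore a description only.

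Within each diet replicate 1 had the lowest macrophage score, a mean of log2 deviations, at -0.756 at 0.5% succinate and -0.201 in the basal diet. Without pairing the scores overlapped, at -0.756, -0.246 and 0.149 at 0.5% succinate and -0.201, 0.362 and 0.692 in the basal diet. Between same-numbered libraries, a pairing taken from these data and not from the labels, the score differed by -0.55, -0.61 and -0.54. The median of the list was -0.54 without replicate 1 of both diets. Without succinate replicate 1 alone it was -0.30, without basal replicate 3 it was -0.32, and without succinate replicate 3 it was -0.83. Markers shared with other immune cells overlapped: CD74, an antigen presentation chain, was at 32.6, 45.2 and 62.6 against 17.0, 76.1 and 69.2 FPKM. Of 19 complement genes, which include the C1q chains, 4 were lower without overlap, beside 10.4% of all genes. After TMM scaling 3 were, beside 3.94%. By sign 1 of the 19 was higher and 18 lower, with a median of -0.67. That median was -0.35 without succinate replicate 1 and -1.01 without basal replicate 1. CFP, properdin, was the member beyond C1q, at 0.736, 2.08 and 2.27 FPKM at 0.5% succinate and 3.51, 2.72 and 5.01 FPKM in the basal diet. In bulk libraries like these, fewer cells of a type and less RNA per cell cannot be told apart.

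IFIT genes, which encode interferon-induced proteins that bind foreign RNA, had a median of -0.53, with 4 of 4 lower. Without overlap 3 of 4 were lower, both as deposited, beside 10.4% of all genes, and after TMM scaling, beside 3.94%. They were grouped after their values were seen. IFIT1 stood at 14.8, 15.4 and 17.1 FPKM at 0.5% succinate and 35.7, 34.3 and 25.5 FPKM in the basal diet, a difference of -0.96 (SE 0.17, adjusted p 0.674). IFIT5 stood at 27.8, 28.4 and 30.7 FPKM at 0.5% succinate and 36.9, 39.1 and 42.1 FPKM in the basal diet, and IFIT2 differed by -0.63 (SE 0.21). Other interferon-induced genes went both ways: USP18, which removes ISG15 from proteins, was lower without overlap, MX1 differed by 0.08 (SE 0.38), and ISG15, a ubiquitin-like modifier, was at 3.10, 3.93 and 1.98 against 0.898, 2.33 and 1.32 FPKM. Of 21 interferon-induced and MHC genes 3 were higher, and the median was -0.20. This median was -0.39 without succinate replicate 2 and -0.09 without basal replicate 2. Chemokines and interleukins had a median of -0.37, with 4 of 19 higher, which was -0.74 without basal replicate 1 and -0.15 without basal replicate 3. CCL24, an eosinophil-attracting chemokine, was lower without overlap, at 0.590, 1.33 and 2.40 against 2.48, 3.61 and 5.11 FPKM. CXCR4, the receptor of the chemokine CXCL12, was higher, at 2.91, 3.23 and 3.14 FPKM at 0.5% succinate and 1.54, 1.73 and 1.90 FPKM in the basal diet, a difference of 0.59 (SE 0.16).

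Adipocyte and neuron genes varied more between libraries than between diets. Adipocyte genes had a median of -0.73, with 1 of 18 higher, and no gene separated the diets. ADIPOQ, adiponectin, a hormone made by fat cells, was at 0.0529, 36.1 and 14.5 FPKM at 0.5% succinate and 8.34, 69.8 and 235 FPKM in the basal diet. The list's median was -0.27 without basal replicate 3 and -1.18 without basal replicate 1. Enteric neuron genes had a median of 0.05, and their scores were -1.447, 0.573 and 0.923 at 0.5% succinate and -0.786, 0.583 and 0.154 in the basal diet, with replicate 1 of each diet lowest. UCHL1, a neuronal ubiquitin hydrolase, was at 0.724, 13.9 and 21.6 against 2.30, 16.4 and 11.4 FPKM. The exception was GAP43, a growth cone protein, at 5.13, 5.28 and 6.88 FPKM at 0.5% succinate and 1.76, 3.96 and 3.08 FPKM in the basal diet, a difference of 0.81 (SE 0.24). Endothelial genes had scores of -0.653, 0.042 and 0.338 at 0.5% succinate and -0.463, 0.366 and 0.369 in the basal diet, and their median of -0.17 was 0.09 without succinate replicate 1. Glia genes had a median of -0.14 over 13, lymphocyte genes -0.34 over 6 and mesothelial genes -0.34 over 4, with no gene that separated the diets. Without basal replicate 1 these medians were -0.39, -0.65 and -0.61. The glia median was 0.00 without basal replicate 2, the lymphocyte median -0.05 without basal replicate 3 and 0.14 at a mean of at least 5 FPKM, and the mesothelial median -0.17 without succinate replicate 1.

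**Figure D2:**
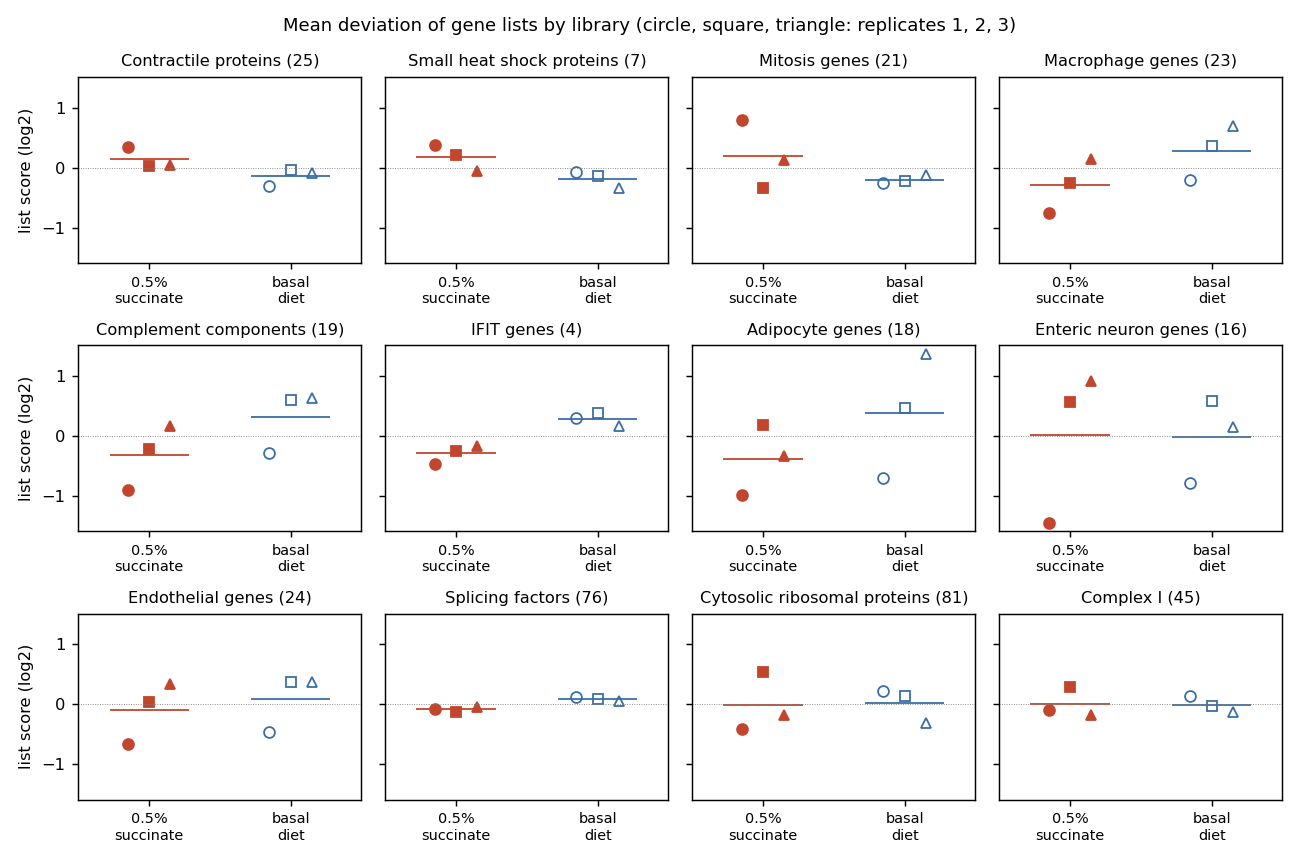
Score of 12 gene lists in each library, the mean over tested members (number in brackets) of log2(FPKM + 1) minus each gene's mean over the 6 libraries; points are libraries and lines the mean of a diet, with 0.5% succinate at the left of each panel. Scores of the contractile, small heat shock, IFIT and splicing lists do not overlap between diets, macrophage and adipocyte scores vary with replicate number, and the mitosis score stands out in succinate replicate 1 at 0.799.

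Cell division genes bear on the proliferation named in the study's title, here in tissue where 7 of 8 markers of stratified epithelium had 0 reads. In a dividing cell, G1 cyclins and kinases start the cycle, replication proteins copy the DNA, and mitotic proteins build the spindle and separate the chromosomes. All 65 mitosis genes listed had reads, and 21 passed the filter, of which 14 were higher, with a median log2 difference of 0.39. Over all 65, the mean was higher at 0.5% succinate in 58, and the highest of the 6 libraries was succinate replicate 1 in 60. The FPKM values of the list summed to 227, 80.6 and 116 at 0.5% succinate and 85.5, 86.4 and 93.5 in the basal diet. Without succinate replicate 1 the median of the tested members was 0.03. Where a mean of at least 5 FPKM was required, the members left had a median of -0.19. The filter of 1 FPKM in 3 libraries can admit a gene through the libraries of a single diet, so the median over members that passed is a description only.

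CCNB1, cyclin B1, which drives entry into mitosis, stood at 5.46, 1.48 and 2.36 FPKM at 0.5% succinate and 0.198, 1.09 and 0.85 FPKM in the basal diet. Its difference was 1.18 (SE 0.37, adjusted p 0.853), and the diets did not overlap. CKAP2, a spindle microtubule protein, was at 13.9, 1.98 and 4.47 against 1.45, 0.774 and 2.29 FPKM, a difference of 1.36 (SE 0.57). UBE2C, a ubiquitin-conjugating enzyme of the anaphase-promoting complex, was at 7.35, 1.14 and 2.79 against 0.696, 0.314 and 1.34 FPKM. Replicate 1 led in each of these, and replicate 3 came second. MKI67, the Ki-67 marker, was below the filter, at 1.26, 0.180 and 0.374 FPKM at 0.5% succinate and 0.0593, 0.0767 and 0.16 FPKM in the basal diet, which do not overlap. Some mitosis genes that were already expressed in all libraries lay lower, such as the checkpoint protein BUB3, at 23.5, 20.4 and 22.6 against 24.8, 27.1 and 24.0 FPKM. MYH2, a fast myosin of skeletal muscle, also stood apart in the same library, at 39.0 FPKM in succinate replicate 1, 0.803 and 0.502 in the others of that diet and 0.303 to 0.657 in the basal diet. Whether these 2 features are related was not tested.

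Lists for the earlier steps of the cycle had medians close to that of all genes; their difference from the mitosis list was not tested. DNA replication genes had a median of -0.07, with 15 of 39 higher; PCNA, the sliding clamp, was at 36, 26.6 and 26.0 FPKM at 0.5% succinate and 25.6, 26.6 and 28.6 FPKM in the basal diet. GMNN and ORC5, which act at replication origins, were lower without overlap, with differences of -0.42 (SE 0.16) and -0.39 (SE 0.16), and POLD3 higher, at 0.16 (SE 0.15). G1 genes had a median of -0.08, with 9 of 26 higher. CCND1, cyclin D1, was at 37.4, 25.6 and 13.2 against 30.4, 34.0 and 25.6 FPKM, and CDK4, its kinase partner, differed by 0.09 (SE 0.17). Among genes of apoptosis, 11 of 27 were higher, with a median of -0.02. CASP8, an initiator caspase, was lower without overlap, at 5.20, 5.37 and 7.21 against 8.07, 9.63 and 9.65 FPKM.

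**Figure D3:**
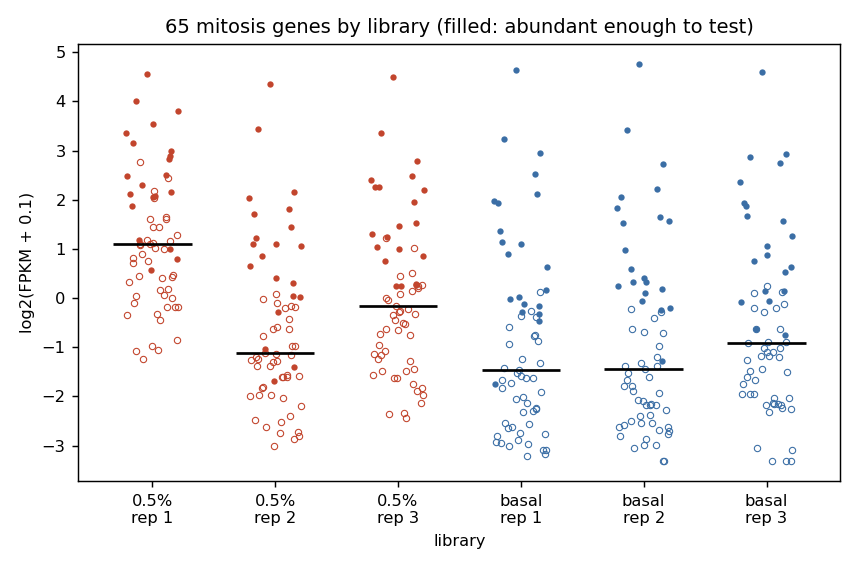
log2(FPKM + 0.1) of each of the 65 mitosis genes in each library, with 0.5% succinate at the left; filled points passed the filter, open points did not, and the bar is the median of all 65. Succinate replicate 1 lies above the other 5 libraries, and summed FPKM was 227 there against 80.6 to 116 in the others.

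Genes that make, use or sense succinate had small differences in both directions. Succinate is made from succinyl-CoA by succinyl-CoA ligase and oxidised by succinate dehydrogenase, which is also complex II of the respiratory chain. Outside the cell it acts on the receptor SUCNR1. Of 19 genes listed, 14 were tested, 6 higher and 8 lower, with a median of -0.02. SDHA and SDHB, the catalytic subunits of the dehydrogenase, differed by 0.12 (SE 0.16) and 0.10 (SE 0.17). SDHAF4, an assembly factor, was lower without overlap, at 12.2, 12 and 9.16 FPKM at 0.5% succinate and 14.2, 18.0 and 14.9 FPKM in the basal diet, a difference of -0.47 (SE 0.17). SUCLA2, a ligase subunit, was lower too, at 26.1, 24.4 and 27.4 against 35.4, 29.7 and 33.3 FPKM, and SDHD, a membrane anchor, at 155, 153 and 139 against 184, 164 and 165 FPKM. SUCLA2 shares its description with 3 other loci and took 8.34% to 11.7% of their reads at 0.5% succinate and 11.5% to 14.6% in the basal diet; the log2 ratio of the sums was -0.04, so its own value is uncertain. These 3 of 14 stand beside 10.4% of all genes, and after TMM scaling their differences were -0.35, -0.20 and -0.06. SUCNR1 was below the filter, at 0.0519, 0.491 and 0.787 FPKM at 0.5% succinate and 0.535, 0.725 and 1.11 FPKM in the basal diet. The carboxylate carrier SLC13A2 had 0 reads in all 6 libraries, which allows up to 3 reads, or 0.165 to 0.186 CPM, for counting error only.

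Other mitochondrial genes varied with succinate replicate 2. The remaining enzymes of the tricarboxylic acid cycle had a median of -0.04 over 18 genes. IDH2, isocitrate dehydrogenase of the mitochondrion, was higher without overlap, at 187, 214 and 159 FPKM at 0.5% succinate and 157, 128 and 135 FPKM in the basal diet. It too shares its description, with 4 loci, and the sums had a log2 ratio of 0.21 (exact permutation p 0.2, two-sided). PDHA1, a subunit of pyruvate dehydrogenase, was lower, at 36.5, 33.0 and 37.2 against 43.6, 47.5 and 53.2 FPKM, a difference of -0.42 (SE 0.14). Complex I genes had a median of 0.02, with 24 of 45 higher, those of complexes III and IV one of 0.08, with 18 of 28 higher, and ATP synthase genes one of 0.01, with 9 of 17 higher. Without succinate replicate 2 these medians were -0.13, -0.09 and -0.16. The 12 tested genes of the mitochondrial genome had a median of 0.05.

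Glycolysis genes had a median of 0.07, with 15 of 24 higher. As deposited, GAPDH, glyceraldehyde-3-phosphate dehydrogenase, was the member that separated the diets, beside 1.63% of all genes that were higher. After TMM scaling 6 members were higher without overlap, beside 4.87% of all genes. After removal of the length trend 3 were, beside 5.4%. GAPDH stood at 367, 430 and 355 FPKM at 0.5% succinate and 222, 206 and 282 FPKM in the basal diet, a difference of 0.70 (SE 0.20, adjusted p 0.853). Summed with its like-named locus the log2 ratio was also 0.70. ENO1, enolase, overlapped between diets, at 88.2, 88.7 and 87.3 against 63.4, 75 and 89.1 FPKM. PFKP, the platelet-type phosphofructokinase, differed the other way by -0.71 (SE 0.31), at 5.13, 5.78 and 5.76 FPKM at 0.5% succinate and 5.31, 14.0 and 12.1 FPKM in the basal diet, with basal replicate 1 among the succinate values. The glycolysis median was -0.05 without basal replicate 1. HIF1A, the oxygen-sensing factor whose hydroxylases succinate inhibits, differed by -0.26 (SE 0.24), and the list of HIF genes and targets had a median of -0.07 over 22. VHL, which marks HIF for destruction, was lower without overlap, at 6.17, 7.06 and 5.66 against 7.93, 8.52 and 8.56 FPKM. TET and KDM demethylases, some of which succinate also inhibits, had a median of -0.10, with 8 of 31 higher. Of the antioxidant genes, 17 of 41 were higher, with a median of -0.07; ME1, malic enzyme, which makes NADPH, was lower at 7.72, 10.9 and 9.17 against 13.5, 13.3 and 14.5 FPKM. Cholesterol genes had a median of -0.09 over 23, and genes of ketone and fatty acid use -0.05 over 22.

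Among genes of RNA and protein synthesis, splicing factors lay lower by small amounts. Of 76 tested, 10 were higher, with a median of -0.16, and 19 were lower without overlap, beside 10.4% of all genes. SRSF5, a serine-arginine splicing regulator, was at 91.0, 83.1 and 101 FPKM at 0.5% succinate and 138, 119 and 150 FPKM in the basal diet, a difference of -0.56 (SE 0.16). HNRNPDL, an RNA-binding protein, differed by -0.36 (SE 0.14), at 80.2, 74.3 and 71.5 against 98.7, 93.0 and 98.6 FPKM. After TMM scaling the median was -0.04, and 3 of 76 were lower and 3 higher without overlap, close to the shares of all genes. After removal of the length trend the median was -0.09, with 20 of 76 higher, beside 47.4% of all genes. Without overlap 8 were then lower and 2 higher, beside 5.05% and 5.4% of all genes. Of the zinc finger genes 38 of 236 were higher as deposited, with a median of -0.15. Without overlap 2 were higher and 34 lower, beside 1.63% and 10.4% of all genes. After TMM scaling 86 of 236 were higher, with a median of -0.05. Then 9 were higher and 7 lower without overlap, beside 4.87% and 3.94%. After removal of the length trend 7 were higher and 12 lower, beside 5.4% and 5.05%. Translation factors had a median of -0.11 over 51, that of all genes, and RNA polymerase subunits -0.12 over 31. PABPC1, which binds the poly(A) tail, was lower in every succinate library, at 290, 445 and 390 against 678, 498 and 533 FPKM. PSMD10, a proteasome assembly chaperone, was at 9.36, 8.35 and 10.1 FPKM at 0.5% succinate and 13.9, 15.8 and 15.0 FPKM in the basal diet, a difference of -0.63 (SE 0.14), while the 46 proteasome genes had a median of -0.02.

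Cytosolic ribosomal proteins had a median of -0.01 over 81 genes, but their score was -0.407, 0.542 and -0.185 at 0.5% succinate and 0.221, 0.134 and -0.306 in the basal diet. Leaving out succinate replicate 2 gave a median of -0.30, and leaving out succinate replicate 1 gave 0.17. The direction of this list turned with the library left out. As deposited, RPS3A was the member that separated the diets, and after TMM scaling 0 members did. RPS3A stood at 2010, 2750 and 1950 FPKM at 0.5% succinate and 4140, 3130 and 3130 FPKM in the basal diet. The table holds 5 further loci with its description, all with reads, and RPS3A itself took 73.7%, 56.7% and 58.0% of the reads of the 6 loci at 0.5% succinate and 89.7%, 75.3% and 92.6% in the basal diet. Summed over the loci the log2 ratio was -0.15.

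HINT1, a histidine triad nucleotide hydrolase, had the smallest adjusted p of any gene with a symbol, and its reads were divided differently among like-named loci. The gene lies on chromosome 5 from 21046462 to 21052574 in the coordinates of the table, whose genome build is not given in the sources used here. It stood at 14.1, 27.2 and 23.0 FPKM at 0.5% succinate and 95.0, 81.1 and 70.5 FPKM in the basal diet, a difference of -1.93 (SE 0.24, adjusted p 0.208). LOC114115721, annotated as HINT1-like on chromosome 7, stood at 65.5, 97.4 and 66.5 FPKM at 0.5% succinate and 35.5, 36.6 and 29.3 FPKM in the basal diet, a difference of 1.14 (SE 0.19, adjusted p 0.674). LOC114111378 on chromosome X was at 18.9, 39.2 and 24.0 against 13.2, 12.4 and 9.09 FPKM, a difference of 1.13 (SE 0.27).

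Summed over the 6 loci with this description, reads came to 55.1, 93.6 and 66.2 CPM (counts scaled to library size) at 0.5% succinate and 79.7, 72.7 and 60.9 CPM in the basal diet. The log2 ratio of the means was 0.01, with an exact permutation p of 1, two-sided; 3 libraries against 3 cannot give less than 0.1. HINT1 took 13.8%, 15.7% and 18.7% of these reads at 0.5% succinate and 64.2%, 60.1% and 62.4% in the basal diet. Reads of near-identical loci can be split by the authors' counting, so the values of the single loci are uncertain; whether the loci share sequence was not tested. Of 400 descriptions shared by 2 or more tested loci, 2 had loci that separated the diets in opposite directions, this one and a predicted translation initiation factor IF-2.

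**Figure D4:**
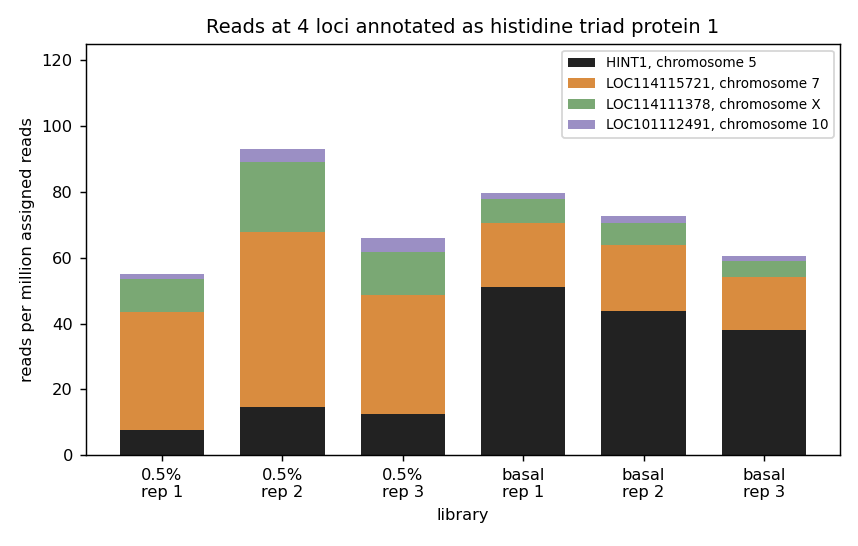
Reads in CPM, scaled to all assigned reads, at the 4 tested loci annotated as histidine triad nucleotide-binding protein 1, stacked, in each library with 0.5% succinate at the left. The black part, HINT1, is 13.8% to 18.7% of the reads of all such loci at 0.5% succinate and 60.1% to 64.2% in the basal diet, while the total heights overlap.

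A like case was LOC101110986 on chromosome 1, from 209425150 to 209426648, one of 4 further loci described as NAP1L1, a histone chaperone. It had the same smallest adjusted p as HINT1, 0.208, with 5.79, 6.31 and 6.73 FPKM at 0.5% succinate and 25.4, 16.5 and 19.6 FPKM in the basal diet, a difference of -1.54 (SE 0.18). The locus LOC114118278 was at 5.76, 6.84 and 6.38 against 32, 12.3 and 12.4 FPKM. NAP1L1 itself, far more abundant, was at 175, 231 and 241 FPKM at 0.5% succinate and 289, 200 and 219 FPKM in the basal diet, which overlap. It took 95.9% to 96.5% of the reads of its loci at 0.5% succinate and 88.7% to 91.3% in the basal diet, and the log2 ratio of the sums was -0.23 (exact permutation p 0.5, two-sided).

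Other genes with a symbol and lower values were spread over many functions. MIGA2, a mitochondrial outer membrane protein that promotes fusion, was at 6.94, 6.20 and 6.57 FPKM at 0.5% succinate and 12.3, 12.8 and 13.2 FPKM in the basal diet, a difference of -0.87 (SE 0.14, adjusted p 0.562). ENOSF1, a mitochondrial sugar acid dehydratase, was at 5.47, 7.12 and 7.24 against 12.8, 13 and 12.5 FPKM. ENOSF1 differed by -0.86 (SE 0.15, limma adjusted p 0.674). Spread within each diet was small for both, which the rule that named them, by smallest p and no overlap, favours. RFX2, a transcription factor of cilia genes, was at 1.26, 1.31 and 1.72 against 4.85, 12.4 and 4.88 FPKM, and RAB27B, a small GTPase of vesicle secretion, at 1.61, 3.35 and 3.75 against 8.57, 7.51 and 6.30 FPKM. WHRN, a scaffold protein of stereocilia, and TYW5, which modifies a base of transfer RNA, differed by -1.05 (SE 0.19) and -0.85 (SE 0.19).

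BAIAP2L1, an adaptor that bends the plasma membrane and bundles actin, was at 0.108, 0.678 and 3.53 FPKM at 0.5% succinate and 8.23, 7.84 and 9.28 FPKM in the basal diet. Its difference was -2.21 (SE 0.47, adjusted p 0.853), and succinate replicate 3 lay between the other libraries. Without that replicate the difference was -2.79 and passed the test, at an adjusted p of 0.0378. SPOCK1, a testican proteoglycan, showed a like pattern with replicate 3 at the basal level, at 0.344, 1.01 and 11.8 against 9.16, 9.17 and 13.7 FPKM.

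Among the higher genes, TUBB, a beta-tubulin, was at 217, 198 and 213 FPKM at 0.5% succinate and 112, 155 and 135 FPKM in the basal diet, a difference of 0.65 (SE 0.18). Tubulins as a list had a median of 0.15, with 8 of 11 higher. CIB2, a calcium- and integrin-binding protein, was at 45.3, 76.6 and 52.1 against 34.7, 28 and 24.0 FPKM, and NMB, the bombesin-like peptide neuromedin B, at 6.80, 4.43 and 3.53 against 3.00, 1.36 and 0.936 FPKM. In these genes the lowest succinate library was above the highest basal one. NINJ2, a cell adhesion protein of the nervous system, was at 25.3, 22.4 and 15.0 against 14.0, 10.5 and 8.58 FPKM, and FNDC10 at 16.3, 12.9 and 9.65 against 6.79, 7.09 and 6.76 FPKM. DHRSX, a dehydrogenase, was at 5.99, 5.95 and 5.78 against 3.62, 3.92 and 2.81 FPKM, and HAGHL at 9.57, 8.80 and 7.11 against 5.63, 4.80 and 4.28 FPKM. Each of these differences had an adjusted p of 0.853. The 12 higher and 12 lower genes named by the rule were picked for having no overlap as deposited. The TMM factors were 0.9116 to 0.9792 at 0.5% succinate and 0.9819 to 1.091 in the basal diet. Dividing by them can only widen the gap of a higher gene, so TMM scaling is no check there. All 12 lower genes kept non-overlapping diets after TMM scaling. After removal of the length trend all 12 higher genes and all lower ones except SLC8A1 did so.

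Signalling lists lay near or below the median of all genes. TGF-beta genes had a median of -0.19 (7 of 36 higher), WNT genes -0.17 (8 of 28), NOTCH genes -0.18 (7 of 21) and insulin-like growth factor genes -0.08 (6 of 14). Leaving out 1 library moved these medians by over 1.5 times. The NOTCH median was -0.42 without basal replicate 1 and -0.01 without basal replicate 3, and the insulin-like growth factor median was -0.34 without basal replicate 1 and 0.11 without basal replicate 2. The WNT median was -0.34 without basal replicate 1 and -0.09 without basal replicate 2, and the TGF-beta median -0.08 without succinate replicate 2. FZD8 and FZD6, WNT receptors, were lower without overlap, with differences of -0.52 (SE 0.22) and -0.33 (SE 0.17). Circadian clock genes had a median of -0.27, with 2 of 19 higher, and CRY1, a clock repressor, was at 2.93, 3.95 and 5.04 against 6.14, 5.06 and 6.69 FPKM. Immediate early genes had a median of -0.23 over 18, and FOS overlapped fully, at 18.0, 3.26 and 11.4 against 11.8, 6.44 and 15.7 FPKM. Solute carriers had a median of -0.12, with 60 of 178 higher, 7 of them without overlap, and 16 lower without overlap, beside 1.63% and 10.4% of all genes. After TMM scaling 14 were higher and 6 lower without overlap, beside 4.87% and 3.94%.

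The length trend of succinate replicate 2 was checked across all tested genes. The deviation of a gene from its mean over the 6 libraries had a Spearman correlation with gene length of 0.21, -0.54 and 0.28 in succinate replicates 1, 2 and 3, and of -0.08, -0.08 and 0.36 in basal replicates 1, 2 and 3. These describe genes within a library, which are not independent replicates. In succinate replicate 2 the median log2 deviation was 0.27 in the shortest decile of genes and -0.33 in the longest. The shortest decile runs from 198 to 1082 bases and the longest from 7612 to 73847.

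In the difference between diets the trend was smaller. The Spearman correlation of log2 difference and length was -0.14 with all 6 libraries, 0.19 without succinate replicate 2 and 0.01 without basal replicate 3. The median difference was -0.04 in the shortest decile and -0.15 in the longest with all libraries, and -0.18 and -0.02 without succinate replicate 2. The ribosomal list and that of complexes III and IV, which moved with this library as given above, have median lengths of 635 and 500 bases. With the trend removed in each library, 0 genes passed, at a smallest adjusted p of 0.0582, and 308 genes were higher and 248 lower at an unadjusted p under 0.05. The contractile median was then 0.38, the macrophage median -0.42 and the mitosis median 0.42, and HINT1 differed by -1.92.

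**Figure D5:**
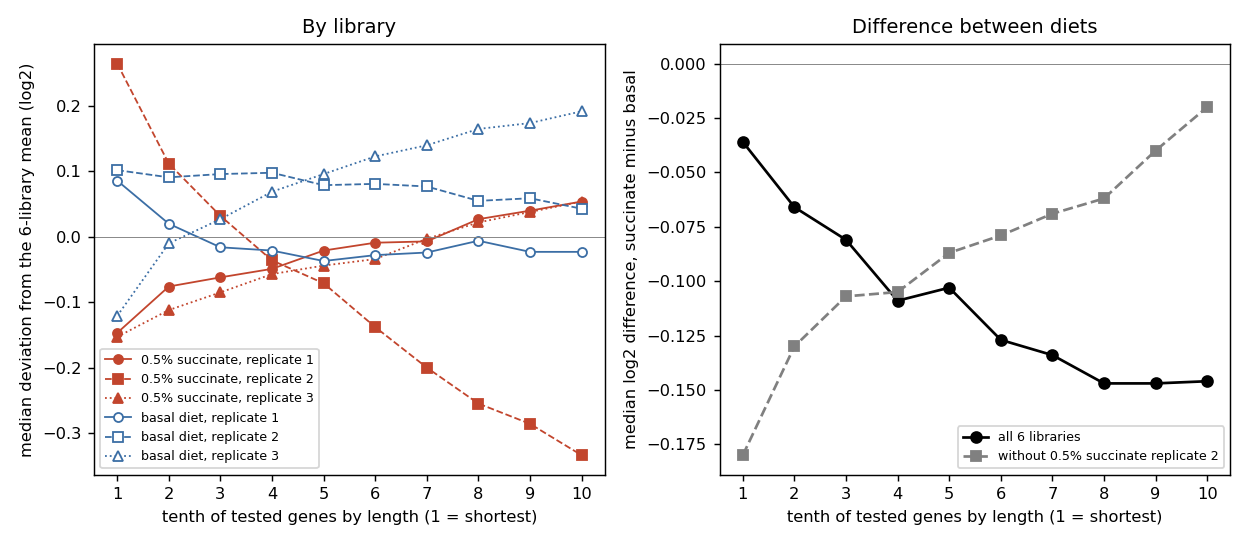
Left: median deviation (log2) from the mean of the 6 libraries by decile of gene length, one line per library, red for 0.5% succinate and blue for the basal diet. Right: median log2 difference, succinate minus basal diet, by the same deciles, with all 6 libraries and without succinate replicate 2; the direction of the trend turns when that library is left out, with 1164 or 1165 genes per decile.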

How the data were processed

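RNA had been isolated with Trizol and made into libraries with the NEBNext Ultra II kit, per the labels' protocols. The submitters' processing notes name cutadapt 1.15, HISAT2 2.1.0 and HTSeq 0.9.1; the genome build is not given in the sources used here. The authors deposited FPKM values per gene and library, not counts. FPKM multiplied by gene length gave whole reads for 100% of values within 0.01 of a read, and these recovered reads served for depth, CPM, exact permutation tests and limma-voom.

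Genes that reached 1 FPKM in 3 or more of the 6 libraries were tested on log2(FPKM + 1) with limma 3.58.1 (R 4.3.3; robust, mean-variance trend) and Benjamini-Hochberg adjustment, at a threshold of 0.05. The test was checked on simulated data. Precision is limited by 3 libraries per diet; floors of 3 reads cover counting error only. Names came from the RefSeq table of the assembly ARS-UI_Ramb_v3.0, which matched 98.2% of genes.

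The members and all gene lists were chosen with earlier results of these data known. Of the 58 lists, 7 were corrected after values were seen, and 2 lists were added then. Genes named are up to 12 per direction, by smallest p among genes with a symbol, no overlap between diets and a mean of at least 2 FPKM, plus the 2 members of each list with the smallest p; further members were chosen after their values were seen. A list's score is the mean log2 deviation of its tested members from their means over the 6 libraries.

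Same-numbered libraries deviated together (correlations 0.228, 0.236 and 0.175), so replicate number served as a block in alternative fits and to compare same-numbered libraries. The main test, with its SEs and adjusted p-values, used no pairing. The pairing comes from the data, not the labels. The alternatives were other scalings, filters and pseudocounts, library weights, the replicate block, removal of the length trend and leaving out libraries. The 1% and 2% succinate diets entered only the fit with all 12 libraries.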

Additional observations from a re-analysis of the deposited data

How the results depend on the processing

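Under 19 alternatives, 2370 of 2377 values of the 127 named genes kept their direction and side of the threshold. These genes were picked by smallest p from the same libraries. With 0 genes past the threshold in the main test, none could be lost from it. That count therefore does not measure how stable their differences are. List medians moved by less than the SD of a list's library scores in 1048 of 1139 cases over 60 lists. That limit is wider where libraries differ more, so the count does not measure how stable the medians are. For enteric neuron genes the SD was 1.031, and medians from -0.49 to 0.76 all lay within it. The count of genes past the threshold was 0 in every alternative except those that left out a library, where it ranged from 0 to 4. It was 1 without succinate replicate 1 (FTL, ferritin light chain, log2 difference 2.55, limma adjusted p 0.0476) and 4 without succinate replicate 3 (BAIAP2L1, SPOCK1, LOC101117638 and LOC114110557, all lower). Genes at an unadjusted p under 0.05 numbered 371 where a mean of at least 5 FPKM was required, which tested fewer genes, and 882 with the replicate block. Leaving out 1 library gave 264 (without basal replicate 3) to 999 (without succinate replicate 3); it was 289 without basal replicate 2 and 836 without basal replicate 1. The replicate block changed no other call.

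Reversed signs were found in 3 named genes, and the cause was not tested. H3F3A, a histone gene, differed by 0.05 with TMM scaling, 0.04 with limma-voom and 0.05 without both libraries numbered 1, and by -0.18 to 0.04 when 1 library was left out. Without both libraries numbered 1, CA2 differed by 0.10 and IGFBP2 by -0.11. BAIAP2L1 was the named gene that crossed the threshold. The alternative without both libraries numbered 1 and the sum over HINT1 loci were chosen after seeing the data. Differences of genes near 1 FPKM are understated by the pseudocount.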

Other observations

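FTL, the light chain of the iron store ferritin, stood at 1.80, 13.8 and 14.7 FPKM at 0.5% succinate and 1.03, 2.16 and 1.75 FPKM in the basal diet. A second ferritin light chain locus, LOC121820289 on chromosome 9, was at 21.4, 28.5 and 3.97 against 18.2, 31.4 and 25.0 FPKM, with succinate replicate 3 low. LOC101117638, annotated as elongation factor 1-alpha 1-like, was at 1.23, 2.65 and 63.7 FPKM at 0.5% succinate and 170, 149 and 68.5 FPKM in the basal diet, and LOC114110557, annotated as the brain fatty acid-binding protein, at 0.358, 0.145 and 24.6 against 22.4, 13.3 and 26.7 FPKM. In both, succinate replicates 1 and 2 were low and replicate 3 was near the basal level. These genes were chosen after their values were seen.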
